A study of Mus musculus with 66 samples.

Results

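Glucocorticoid-related genes in the lung of mice with and without the transcription factor Nrf2 are described here: the receptor gene Nr3c1, the hormone-activating enzyme gene Hsd11b1, 6 receptor targets (Fkbp5, Tsc22d3, Klf9, Zbtb16, Sgk1 and Fam107a) and Crh, the gene of corticotropin-releasing hormone. The 9 genes were chosen from a list of names. Measured values were in view: they were selected on, among others, the genotype difference of Crh at E18.5 and those of Fam107a and Zbtb16 at PND0. All 9 genes were on the array, out of 18193 named genes, with 29 of 45037 probe sets, and the brightest probe set over all arrays stood for each gene. RNA of homogenized lung was measured on 66 Affymetrix arrays, in 22 groups of 3. The groups were wild type (Nrf2+/+, WT) and knockout (Nrf2-/-, KO) mice at 11 ages. Of these 4 were before birth (E13.5, E15.5, with E17.5 and E18.5 near term). The 7 after birth (PND) were days 0, 1, 2, 3 and 4, then 14 and 42. Each sample was 1 lung, except at E13.5, where 2 to 3 lungs were combined, and the 3 samples of a group are called biological replicates. All mice came from time-mated dams on AIN-76A feed, with no other treatment named. No cell type was sorted, and fewer cells of a type cannot be told apart from less RNA per cell in any value below.

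Glucocorticoids are steroid hormones of the adrenal cortex that rise before birth and mature the fetal lung, where they thin the mesenchyme and induce surfactant and sodium channel genes. The hormone binds the receptor encoded by Nr3c1, which enters the nucleus and binds a DNA element made of a pair of facing half-sites. Corticotropin-releasing hormone of the hypothalamus starts the axis that drives adrenal output, and mice without it are known for immature lungs at birth. Nrf2, encoded by Nfe2l2, switches on antioxidant and detoxification genes through another element.

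Promoter windows of the members are shown first. RefSeq windows (build GRCm38.p6) of 300 bases from 250 before to 50 after a gene's start were given for Fkbp5, Klf9, Tsc22d3, Fam107a, Sgk1 and Hsd11b1, and not for Nr3c1, Zbtb16 and Crh. The receptor half-site searched was AGAACA, read on both strands (TGTTCT on the other), and 18.974% of 32851 windows hold it. The whole element, a pair of half-sites facing each other 3 bases apart, was in 3 windows (0.009%), 1 of them of Sgk1, and it contains 2 half-site matches. Capitals mark the match, and positions count from the gene's start.
Sgk1, whole element at -189, chr10:21993671-21993745, plus strand: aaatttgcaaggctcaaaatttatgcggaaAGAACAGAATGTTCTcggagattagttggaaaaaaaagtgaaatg
Fam107a, half-site at -158, chr14:8309902-8309967, minus strand: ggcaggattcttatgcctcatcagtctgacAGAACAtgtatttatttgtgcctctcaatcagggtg
Fam107a, half-site at -110, chr14:8309854-8309919, minus strand: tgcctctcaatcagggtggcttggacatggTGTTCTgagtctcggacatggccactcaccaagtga
Tsc22d3, half-site at -185, chrX:140600672-140600737, minus strand: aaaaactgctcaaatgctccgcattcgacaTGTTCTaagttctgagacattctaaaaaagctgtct
Of the 6 Sgk1 windows 3 held a half-site, as did 2 of 3 Fam107a windows, which overlap, and 1 of 3 Tsc22d3 windows. The single windows of Fkbp5, Klf9 and Hsd11b1 held none of these letters. The antioxidant element bound by Nrf2 with its partners (TGACNNNGC, both strands, in 12.392% of windows) was found in 1 member, at -191 of Hsd11b1.
Hsd11b1, antioxidant element at -191, chr1:193242513-193242581, minus strand: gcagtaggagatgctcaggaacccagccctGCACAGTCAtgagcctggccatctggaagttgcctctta
These matches describe letters in a window and say nothing of binding in these lungs.

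Levels below are log2(signal + 16) after quantile normalization between arrays, and a difference of 1 is a doubling. The targeted gene Nfe2l2 lay between 10.49 and 12.25 in the 33 WT arrays and between 4.41 and 8.26 in the 33 KO arrays, with no overlap. The 24 arrays of PND1 to PND4 were deposited on another scale (2% trimmed mean 171.7 to 307.14) than the 42 others, which shared 1 higher trimmed mean, so steps between the sets rest on the normalization, and both genotypes of an age lay in 1 set. The knockout libraries labelled E17.5 and E18.5 lay on a fetal scale in the reverse order of their labels, and the cause was not tested. On a scale of 2656 genes without the members, with the mean of WT E15.5 at 0 and of WT PND0 at 1, WT E17.5 lay at 0.569 ± 0.062 and WT E18.5 at 0.789 ± 0.086 (SD, n = 3). The KO libraries labelled E17.5 lay at 0.739 ± 0.034, above all WT E17.5 libraries, and those labelled E18.5 at 0.438 ± 0.073, below all of them. Of the lung markers, Sftpc was at 10.97 or more and Foxf1 at 10.12 or more on every array. Nkx2-1 (5.53 to 8.33), Foxj1 (4.45 to 9.46) and Scgb1a1 (4.43 to 14.99) were dim on some arrays, and a level of 5.75 is the 25th percentile of all gene levels. Markers of muscle, liver, thymus and oesophagus varied between single lungs and are given beside the results they moved with.

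Crh was high in the fetal lung and near the bottom of the scale after birth. In WT it was 7.89, 6.91 and 8.25 at E13.5, then 10.43, 10.46 and 10.44 at E15.5, and 11.09, 10.35 and 9.62 at E17.5. It was 6.94, 6.87 and 7.94 at E18.5 and 5.44, 5.16 and 5.59 at PND0. At every later age the WT libraries lay between 4.03 and 5.22. Crh in WT was thus high at E15.5 and E17.5, lower before and after, and below that 25th percentile from PND0 on. By limma, Crh fell by 3.19 ± 0.34 (SE) from E15.5 to E18.5 in WT (adjusted p = 9.3e-11). By the same test it fell by 1.85 ± 0.34 from E18.5 to PND0 (adjusted p = 0.00022). Both steps use the WT E18.5 libraries, which are part of the genotype difference that chose Crh. These p-values are therefore not independent of that choice. In the order of the WT means of Crh, 7 of 10 neighbouring ages overlapped. The breaks lay below E17.5, below E18.5 and below PND0.

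**Figure D1:**
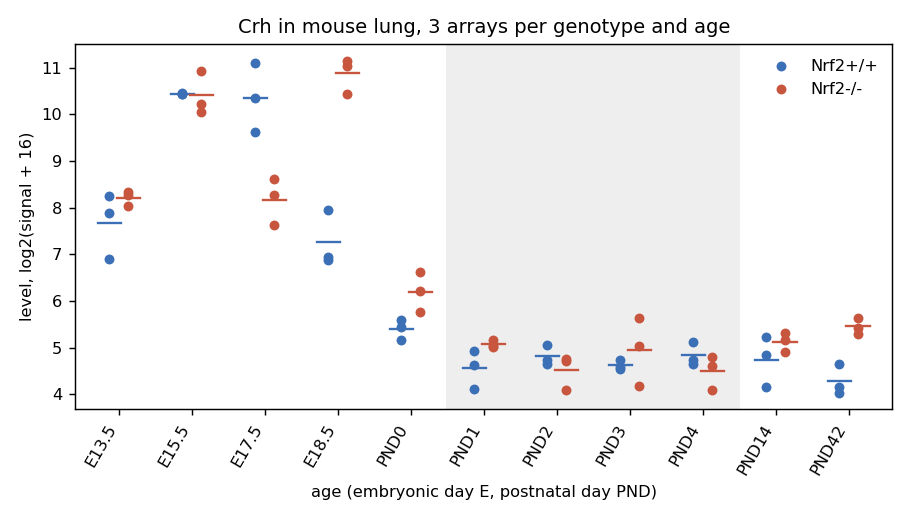
Crh level, log2(signal + 16), on the vertical axis against age, with 1 point per array, short bars at the mean of 3 arrays, WT in blue and KO in red, and the ages of the second array set shaded. Both genotypes are high at E15.5, the KO arrays labelled E17.5 lie at 7.62 to 8.62 below all WT arrays (9.62 to 11.09), and those labelled E18.5 at 10.44 to 11.15 above all WT arrays (6.87 to 7.94).

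In KO, Crh was 8.03, 8.34 and 8.27 at E13.5 and 10.94, 10.05 and 10.21 at E15.5, and the genotypes overlapped at both ages. The libraries labelled KO E17.5 read 8.62, 7.62 and 8.27, all below the WT libraries of that age, a difference of -2.18 ± 0.34 (limma adjusted p = 4.4e-05). That call was lost with a pseudocount of 1 (-2.24, adjusted p = 0.115), and the value lay between -2.25 and -2.01 over the settings other than leaving out a library. The libraries labelled KO E18.5 read 10.44, 11.15 and 11.03, all above every WT E18.5 library, and the mean difference was 3.62 ± 0.34, given without a test because it chose the member.
Of the 24 libraries from E15.5 to PND0, Crh was highest in 2 KO libraries labelled E18.5 (fetal scale position 0.480 in each) and in a WT E17.5 library (0.527). The KO libraries labelled E17.5 had positions of 0.700 to 0.763 and Crh levels between those of WT E17.5 (positions 0.527 to 0.640) and of WT E18.5 replicates 1 and 2 (positions 0.831 and 0.846). Crh in WT E18.5 replicate 3, at position 0.689, was 7.94. Whether the fetal scale position accounts for the Crh differences was not tested. Cartilage markers were also higher in the libraries labelled KO E18.5 (mean level 7.19 to 9.79 against 6.19 to 6.70). Of these 4 of 8 lay above all WT libraries, as did 6 of 7 cell cycle genes (11.08 to 11.46 against 9.68 to 10.64) and 16.9% of all genes. The part of these markers in the result was not tested.

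**Figure D2:**
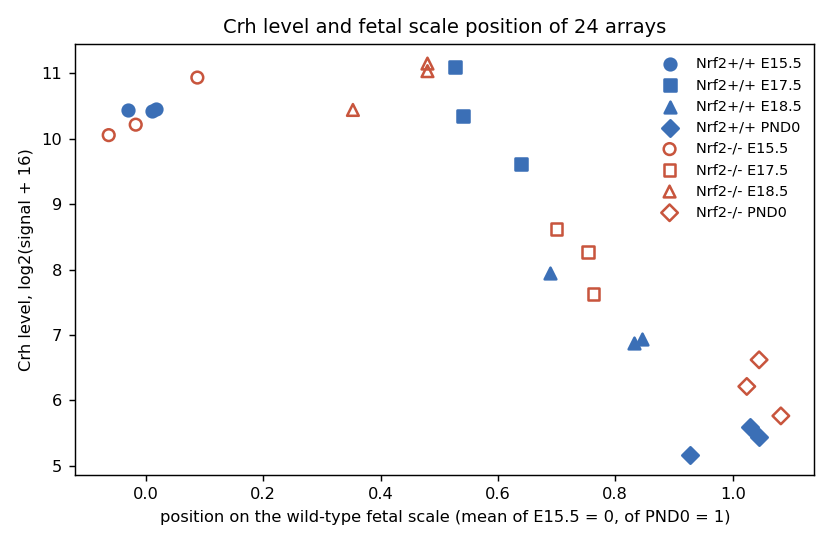
Crh level, log2(signal + 16), on the vertical axis against the position of a library on the WT fetal scale (2656 genes without the members, no unit) for 24 arrays from E15.5 to PND0. Filled blue marks are WT and open red marks KO, with 1 shape per labelled age, and the libraries labelled KO E18.5 lie at 0.353 to 0.480, left of those labelled KO E17.5 at 0.700 to 0.763.

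After birth Crh stayed low in both genotypes. At PND0 KO libraries read 5.76, 6.21 and 6.62, above the 3 WT libraries. At PND42 they read 5.30, 5.43 and 5.64 against 4.03, 4.16 and 4.66 in WT, without overlap, a difference of 1.17 ± 0.34 (limma adjusted p = 0.024). Both levels lay below the 25th percentile of gene levels, and the difference shrank to 0.44 with a pseudocount of 64 (adjusted p = 0.33). Its call was also lost without WT replicate 1 (adjusted p = 0.12), WT replicate 2 (0.095), KO replicate 2 (0.068) or KO replicate 3 (0.11). Adrenal cortex markers other than Fdx1 had median levels of 4.53 to 6.33 over all arrays. Cyp21a1 (median 6.14) and Star (6.33) were above the 25th percentile, and Hsd3b1 and Nr5a1 reached 8.22 and 7.33 on single arrays. None of the 7 was called at PND42, where 1 thymocyte, 1 matrix fibroblast and 1 macrophage marker fell, and the part of these cells was not tested. The 10 measured genes of the peptide hormone system (CRH receptors, urocortins, the binding protein and processing enzymes, without Pcsk2) had no call at any of the 9 ages tested. Averaged over the 9 ages, Ucn3, a urocortin, was higher in KO by 0.28 ± 0.08, and 5.39% of all genes rose on this average. The mean level of the 10 genes lay between 5.22 and 5.72 in the groups, below the 25th percentile of gene levels.

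Hsd11b1, which encodes the enzyme that turns inactive 11-keto steroids into active hormone, had the steepest fetal rise of the 9. WT libraries read 6.71, 7.46 and 6.65 at E13.5, 8.28, 8.20 and 8.13 at E15.5, 12.21, 12.19 and 12.48 at E17.5, and 12.81, 12.68 and 12.50 at E18.5. The rise from E15.5 to E18.5 was 4.46 ± 0.33 (limma adjusted p = 1.6e-15), a 22.0-fold change on this scale. It was 13.45, 13.37 and 13.35 at PND42, the highest age. None of the 9 tested genotype differences of Hsd11b1 passed, and they ran from -0.32 at PND1 to 1.02 at E13.5. At E13.5 the KO libraries spread from 6.82 to 9.23 and overlapped those of WT. The lung markers did not overlap at E13.5, with mean levels of 9.14 to 10.91 in KO against 7.92 to 8.48 in WT. Their part in the Hsd11b1 difference was not tested. In the libraries labelled KO E18.5 Hsd11b1 read 11.14, 12.18 and 11.90, below all WT libraries, a difference of -0.92 ± 0.33 given without a test.

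Nr3c1, the receptor itself, moved least with age. Its WT group means spanned 1.51, from 10.10 at E13.5 to 11.61 at E18.5, and 8 of 10 neighbouring ages overlapped. It rose by 0.75 ± 0.11 from E15.5 to E18.5 (limma adjusted p = 5.9e-07). The fall of 0.43 ± 0.11 from E18.5 to PND0 (adjusted p = 0.017) lost its call without WT E18.5 replicate 1 (0.12) or 2 (0.081) or WT PND0 replicate 1 (0.066) or 2 (0.072), and in 3 other settings. None of the 9 tested genotype differences of its brightest probe set passed, and all lay between -0.09 and 0.25. At PND42 its 6 probe sets disagreed: 3 were lower in KO (-0.45, -0.80 and -1.53, with limma adjusted p of 0.019, 0.026 and 0.00012), 1 was higher (0.68, adjusted p = 0.0041) and 2 did not pass (0.25 and 0.39). A direction for Nr3c1 in the adult was therefore not given.

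The 6 receptor targets followed different courses in WT. Neighbouring steps share a group, as do a step and a genotype difference at its ages. WT steps that use E18.5 or PND0 share libraries with the differences that chose Crh, Fam107a and Zbtb16. By limma, the level of all 9 members changed with age over the 11 WT groups, with adjusted p from 2.2e-08 for Zbtb16 to 4.6e-28 for Sgk1, as did 74.1% of all genes. All 9 also changed over the 7 ages of the first array set (66.0% of genes), and 5 of 9 within PND1 to PND4 (14.7% of genes). From E15.5 to E18.5, 6 of 9 members rose against 16.0% of genes, and 2 fell against 18.8%.
Klf9, a Krueppel-like transcription factor, rose by 2.73 ± 0.27, from libraries at 10.39, 10.54 and 10.11 to 13.26, 13.26 and 12.71. Zbtb16, a zinc finger repressor of transcription, rose by 2.92 ± 0.51, from 7.11, 7.25 and 7.01 to 9.93, 10.46 and 9.76. Tsc22d3, which encodes the anti-inflammatory leucine zipper protein GILZ, rose by 1.63 ± 0.23, and Sgk1, a kinase that raises sodium channel activity, by 1.19 ± 0.18. In each of these 4 genes the libraries of the ages did not overlap. Fkbp5, a co-chaperone that lowers the receptor's affinity for hormone, differed by 0.49 ± 0.30, which did not pass. Fam107a, an actin-binding protein induced by stress, fell by 0.86 ± 0.31 (adjusted p = 0.031), a call that was lost in 4 settings (as deposited, 0.10) and without WT E15.5 replicate 2 (0.098) or 3 (0.084) or WT E18.5 replicate 1 (0.056), 2 (0.10) or 3 (0.054). Over the same step 7 of 8 endothelial markers rose (median 1.27), as did 5 of 8 lung, 4 of 8 matrix fibroblast, 4 of 8 oesophagus and 3 of 8 macrophage markers, and 7 of 7 cell cycle genes fell (median -1.75). Their part was not tested.

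From E18.5 to PND0 in WT, 2 of 9 members rose (3.26% of genes) and 2 fell (2.47%). Fam107a rose by 1.52 ± 0.31 (limma adjusted p = 0.00098), from 6.06, 5.87 and 6.02 to 7.39, 7.66 and 7.46. This call was lost with the second brightest probe set (1.01, adjusted p = 0.14). The WT PND0 libraries were also part of the difference that chose Fam107a. Sgk1 rose by 0.79 ± 0.18 (adjusted p = 0.0043), and this call was lost without WT E18.5 replicate 3 (0.60, adjusted p = 0.077). Crh and Nr3c1 were the genes that fell. Of 8 macrophage markers 4 rose over this step, and the median difference was 2.66 for 8 skeletal muscle markers and 2.07 for 8 oesophagus markers. Their part was not tested. From PND0 to PND14, Sgk1 alone of the 9 rose, by 0.90 ± 0.18 (9.01% of genes rose). WT PND14 replicate 2 stood apart: it had 11.07 for Fkbp5 against 8.68 and 9.25, and 12.71 for Klf9 against 13.71 and 13.90. Its thymocyte markers averaged 11.81 against 6.51 and 9.18, and its cell cycle genes 11.74 against 8.95 and 9.49. Without it, the step from PND0 to PND14 became -1.496 for Fkbp5 (adjusted p = 3e-05) and 0.98 for Klf9 (adjusted p = 0.010), and both passed.
From PND14 to PND42, 2 of 9 rose (9.55% of genes) and 2 fell (10.5%). Fam107a rose by 1.34 ± 0.31 and kept the call in each setting without 1 library. Over this step all 7 cell cycle genes, 5 of 7 thymocyte and 3 of 8 oesophagus markers fell, and 5 of 8 endothelial and 3 of 8 macrophage markers rose. Of the skeletal muscle markers 6 of 8 lay below all PND14 libraries, a count given without its share of all genes. Their part was not tested. Fkbp5 fell by 1.38 ± 0.30, but by 0.67 without WT PND14 replicate 2 (adjusted p = 0.094). Hsd11b1 rose by 0.97 ± 0.33, but by 0.54 without that library (adjusted p = 0.38), and its call was also lost without WT PND42 replicate 1 (0.089), 2 (0.074) or 3 (0.072). Tsc22d3 fell by 0.67 ± 0.23, a call lost without WT PND14 replicate 1 (0.22) or 3 (0.21) or WT PND42 replicate 1 (0.074), 2 (0.20) or 3 (0.061). Within the second array set, 3 of 9 members fell from PND1 to PND4 in WT (6.1% of genes): Klf9 by 2.18 ± 0.27, Fam107a by 1.76 ± 0.31 and Tsc22d3 by 1.25 ± 0.23. The call of Fam107a was lost with its second brightest probe set (-1.08, limma adjusted p = 0.063). All 7 cell cycle genes rose in WT from PND1 to PND4 (7.31% of genes rose).
In KO, the same 3 genes fell from PND1 to PND4 (6.0% of genes), by 0.90 ± 0.27 for Klf9, 0.94 ± 0.31 for Fam107a and 0.87 ± 0.23 for Tsc22d3. All 3 calls were lost without KO PND1 replicate 1 (-0.73, -0.69 and -0.55), and those of Klf9 and Fam107a also without KO PND1 replicate 3 (adjusted p = 0.064 and 0.11) or KO PND4 replicate 2 (0.081 and 0.13) or 3 (0.065 and 0.11), and Fam107a without KO PND4 replicate 1 (0.086). From PND14 to PND42 in KO, Tsc22d3 fell by 0.90 ± 0.23 (8.23% of genes fell), a call lost without KO PND42 replicate 2 (0.064) or 3 (0.067). All 7 cell cycle genes rose in KO from PND1 to PND4, and 7 of 8 oesophagus and 6 of 8 skeletal muscle markers fell from PND14 to PND42. Their part was not tested.

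**Figure D3:**
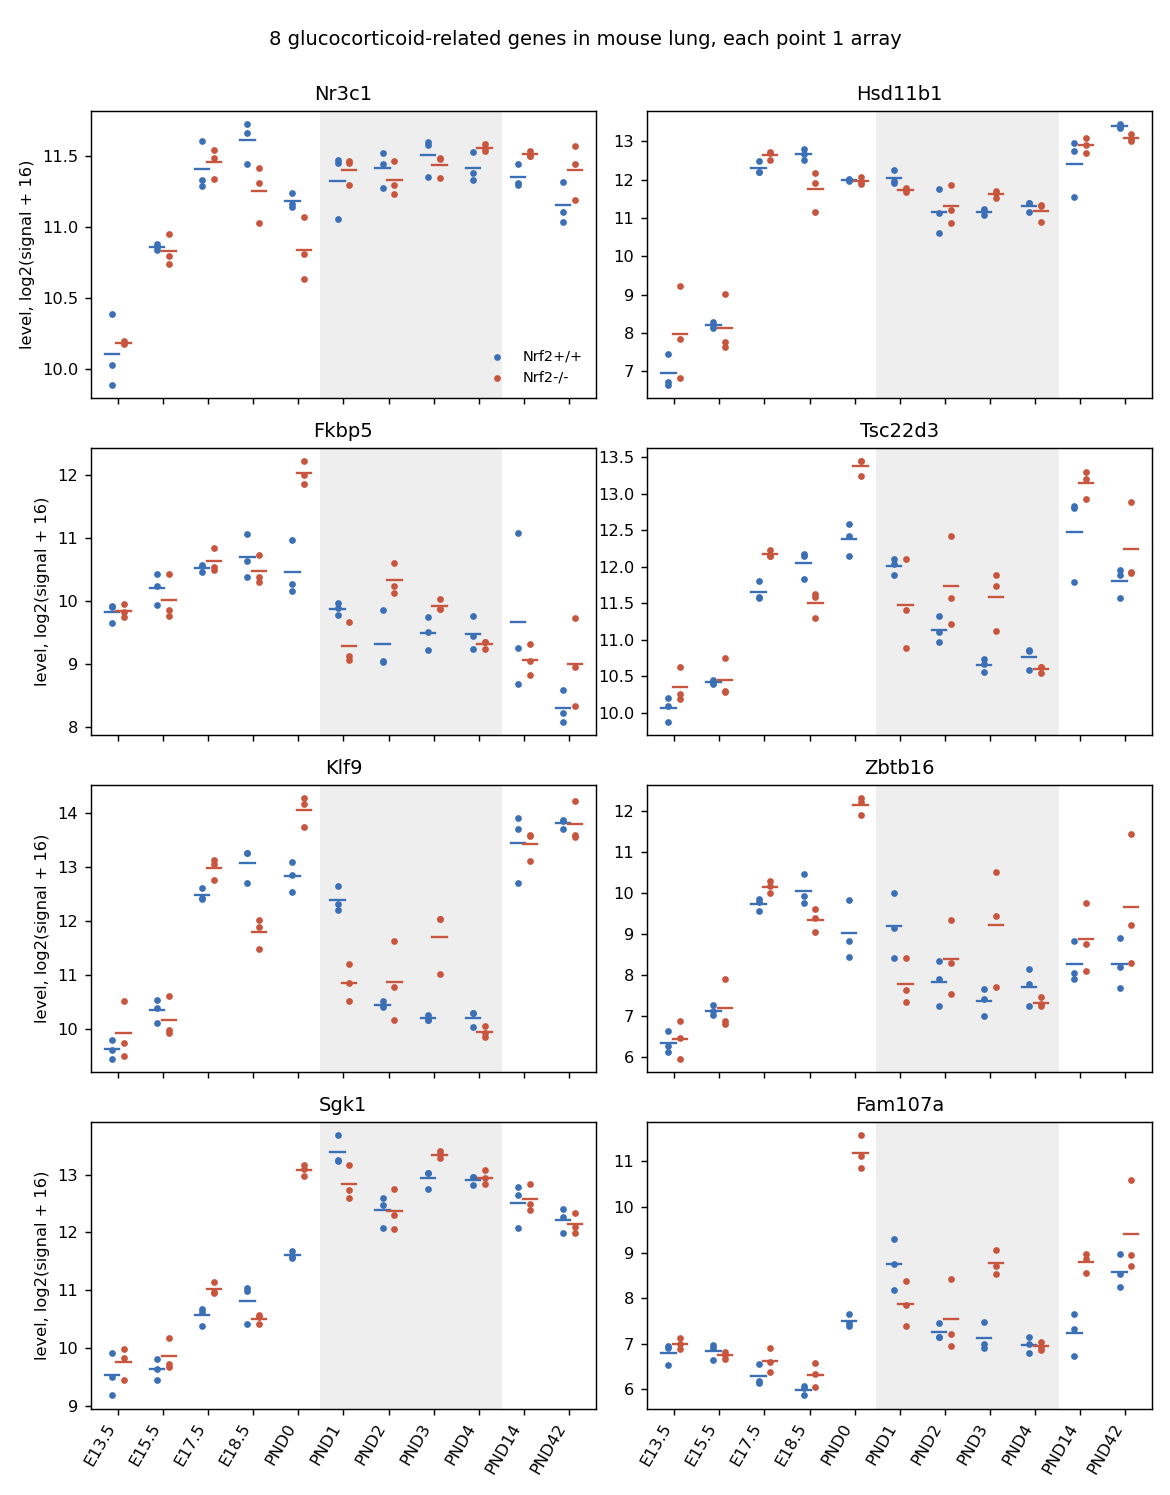
Levels, log2(signal + 16), of 8 members on the vertical axes against age, with 1 point per array, bars at the mean of 3 arrays, WT in blue, KO in red, and the ages of the second array set shaded. The 3 KO arrays of PND0 lie above the 3 WT arrays for the 6 receptor targets, by the widest margin for Fam107a (10.86 to 11.58 against 7.39 to 7.66), and below them for Nr3c1.

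At PND0, the 6 receptor targets were all higher in KO than in WT, in every library. This age helped to choose the members, so its values are a description. Fam107a read 10.86, 11.11 and 11.58 in KO against 7.39, 7.66 and 7.46 in WT, a difference of 3.68 ± 0.31, or 12.8-fold on this scale. Zbtb16 read 11.90, 12.33 and 12.23 against 8.45, 9.83 and 8.82, a difference of 3.12 ± 0.51, or 8.69-fold. For both genes the lowest KO library stood over 2 units above the highest WT library.
Fkbp5 read 11.86, 12.00 and 12.22 against 10.27, 10.97 and 10.16 (1.56 ± 0.30). Sgk1 read 12.97, 13.10 and 13.16 against 11.56, 11.58 and 11.67 (1.48 ± 0.18). Klf9 read 13.74, 14.28 and 14.16 against 12.54, 12.85 and 13.10 (1.23 ± 0.27). Each of these genes separated the genotypes by less than Fam107a and Zbtb16 did.
Tsc22d3 read 13.24, 13.45 and 13.45 against 12.14, 12.42 and 12.59 (1.00 ± 0.23). With Crh, 7 of 9 members had all KO libraries above all WT libraries, as did 14.6% of genes. Nr3c1 was the 1 member below (10.63, 11.07 and 10.81 against 11.16, 11.14 and 11.24), as were 18.6% of genes, and Hsd11b1 overlapped. These directions held in each setting tried, except for Hsd11b1, whose difference lay between -0.08 and 0.06. Of the 7 Klf9 probe sets all 7 were higher, by 0.74 to 2.67, and all 3 of Fam107a (1.57 to 3.68) and of Zbtb16 (2.02 to 3.12) were. The dimmest Fkbp5 probe set was lower (-0.57), as was a dim one of Tsc22d3 (-0.03).
KO PND0 replicate 1 was the lowest of its 3 libraries in all 9 genes, and it still lay above the WT libraries in the 7. WT PND0 replicate 2 had the most thymocyte marker signal (mean level 8.999, against 4.85 in the lowest WT library and 4.99 to 5.85 in KO). It was the highest WT library for Fkbp5, Zbtb16 and Fam107a, and without it the differences were 1.82, 3.52 and 3.76. Of the cell cycle genes, 5 of 7 were below all WT libraries (8.15 to 8.37 against 8.75 to 9.91), as were 18.6% of all genes. Skeletal muscle (7.64 to 11.48 against 10.28 to 10.73) and oesophagus markers (7.39 to 9.71 against 9.76 to 10.15) varied between the KO lungs, and the part of these tissues was not tested.
Within KO, the step from the libraries labelled E18.5 to PND0 was 4.86 for Fam107a, 2.80 for Zbtb16, 2.57 for Sgk1, 2.27 for Klf9, 1.88 for Tsc22d3 and 1.56 for Fkbp5. In WT, the same step was 1.52, -1.02, 0.79, -0.25, 0.34 and -0.23. The KO steps all use the KO libraries labelled E18.5, which lay below all WT E17.5 libraries on the fetal scale. The difference between the KO and WT steps was not tested. Between PND0 and PND1 the array set changes, so no step is given.

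At E18.5, the other age that chose a member, 5 of 9 members lay below all WT libraries in KO (14.0% of genes) and Crh above them (16.9%). Klf9 read 11.48, 12.02 and 11.88 against 13.26, 13.26 and 12.71, a difference of -1.28 ± 0.27. The differences were -0.92 for Hsd11b1, -0.70 for Zbtb16, -0.54 for Tsc22d3 and -0.36 for Nr3c1. Fam107a differed by 0.34 ± 0.31 and overlapped. At E17.5, 5 of 9 lay above all WT libraries (15.8% of genes) and Crh below (11.0%). Klf9, Tsc22d3, Zbtb16, Hsd11b1 and Crh separated the genotypes at both labels, with opposite signs. Sgk1 (0.46 at E17.5 and -0.305 at E18.5), Nr3c1 (0.05 and -0.36) and Fkbp5 (0.10 and -0.22) also changed sign. Sgk1 replaced Nr3c1 among the 5, and Fam107a had the same difference at both labels (0.34). At E17.5 Crh alone of the members passed limma's test, among 0.313% of genes that fell, and Tsc22d3 (0.52), Klf9 (0.50), Sgk1 (0.46), Zbtb16 (0.43) and Hsd11b1 (0.34) did not. In WT these 5 genes and Nr3c1 rose from E15.5 to E18.5 and Crh fell. Whether the fetal scale positions of these libraries account for the differences was not tested. Of 8 macrophage markers 4 rose at E17.5 (mean level 9.17 to 9.45 in KO against 7.85 to 8.11 in WT), and 2 of 8 endothelial markers rose (10.85 to 11.14 against 10.54 to 10.61). Oesophagus markers were below all WT libraries in 8 of 8 genes, 3 of them called (5.67 to 6.50 against 8.20 to 8.59), and liver markers above in 7 of 7, with none called (7.65 to 8.67 against 4.92 to 5.14). Their part was not tested.

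Outside those ages, limma found 9 member differences between genotypes among 81 tested (9 genes at 9 ages). The members were chosen with earlier results of these data known, so these tests may not be fully independent of that choice. None passed at E13.5 (1.96% of genes passed), E15.5 (0.148%) or PND4 (0.643%). At PND1, 1 of 9 fell (0.764% of genes), and at PND3, 4 of 9 rose (4.08%). At PND2 (3.11% of genes rose), PND14 (5.22%) and PND42 (3.18%) 1 of 9 rose, Fkbp5, Fam107a and Crh in turn.
At PND3 the KO libraries lay above all WT libraries for 7 of 9 members, as for 13.7% of genes. Fam107a read 8.53, 9.06 and 8.71 in KO against 7.47, 6.92 and 6.99 in WT, a difference of 1.64 ± 0.31 (adjusted p = 0.00021). Klf9 read 11.03, 12.04 and 12.04 against 10.18, 10.26 and 10.16 (1.504 ± 0.27, adjusted p = 8.2e-05). Both calls held without any 1 library, with adjusted p of at most 0.0038 and 0.0028.
Zbtb16 read 7.69, 10.52 and 9.43 against 7.41, 7.66 and 6.99 (1.86 ± 0.51, adjusted p = 0.014). Its first KO library was close to WT, and the call was lost without KO PND3 replicate 2 (1.21, adjusted p = 0.20), KO PND3 replicate 3 (0.064) or WT PND3 replicate 3 (0.076), and narrowly with the values as deposited (0.050). Tsc22d3 read 11.12, 11.74 and 11.89 against 10.67, 10.74 and 10.56 (0.93 ± 0.23, adjusted p = 0.0071), and lost the call without KO PND3 replicate 3 (0.77, adjusted p = 0.073) and with the values as deposited (0.59, adjusted p = 0.11). Fkbp5, Sgk1 and Hsd11b1, at 0.44, 0.41 and 0.46, did not pass.
Skeletal muscle markers moved with these genes at PND3: 5 of 8 rose, and their mean level was 7.91, 13.43 and 10.03 in the 3 KO libraries against 7.03 to 7.45 in WT, the same order as Zbtb16 and Fam107a. Without KO PND3 replicate 2, the library with the most muscle signal, the differences were 1.49 for Fam107a, 1.34 for Klf9 and 0.85 for Tsc22d3, and all 3 passed. Liver markers were lower in KO (5.21 to 5.61 against 6.49 to 12.88), as were cell cycle genes in all 7 (9.46 to 10.20 against 10.67 to 10.89). KO PND3 replicate 3, which remained, still had more muscle signal than any WT library. The part of these tissues in the result was not tested.

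At PND1 the sign was the reverse. Klf9 read 11.20, 10.52 and 10.85 in KO against 12.21, 12.65 and 12.32 in WT, a difference of -1.53 ± 0.27 (limma adjusted p = 0.00024), which held without any 1 library (adjusted p of at most 0.0069). With it, Fkbp5, Zbtb16, Sgk1 and Hsd11b1 had all KO libraries below all WT libraries, so 5 of 9 did (8.49% of genes), and Crh was the 1 member above (13.8%). The differences of Zbtb16 (-1.40), Fam107a (-0.87), Fkbp5 (-0.59), Sgk1 (-0.56) and Tsc22d3 (-0.54) did not pass. KO PND1 replicate 1 was the highest of its group in 7 of 9 members, and without it Sgk1 passed (-0.73, adjusted p = 0.044). No skeletal muscle, liver, oesophagus, thymocyte or cell cycle marker was called at PND1. WT PND1 replicate 3, the highest for Zbtb16 (10.01), had the most muscle signal (mean level 10.03, against 7.55 and 6.79 in WT and 6.61 to 6.91 in KO), and WT replicate 2, the highest for Klf9, the most liver signal (12.37, against 6.66 and 8.50 in WT and 5.33 to 6.83 in KO). Their part was not tested.
At PND2, Fkbp5 read 10.60, 10.13 and 10.24 in KO against 9.04, 9.86 and 9.02 in WT (1.01 ± 0.30, limma adjusted p = 0.033). The call was lost without WT PND2 replicate 1 (adjusted p = 0.14) or 3 (0.13) or KO PND2 replicate 1 (0.18) or 3 (0.056), and with the values as deposited (0.16) or scaled to 1 trimmed mean (0.061). Thymocyte markers rose at PND2 in 5 of 7 genes (mean level 7.28 to 10.52 against 5.61 to 6.22), while 4 of 8 macrophage and 2 of 8 oesophagus markers fell, and their part was not tested.
At PND14, Fam107a read 8.96, 8.54 and 8.85 in KO against 7.66, 6.72 and 7.33 in WT (1.55 ± 0.31, limma adjusted p = 0.00087). Without WT PND14 replicate 2, the library that stood apart, the difference was 1.29 (adjusted p = 0.036). All 7 cell cycle genes fell at PND14 (mean level 8.12 to 8.31 in KO against 8.95 to 11.74 in WT), as did 5 of 7 thymocyte markers (6.07 to 6.36 against 6.51 to 11.81), and their part was not tested. At PND42 KO replicate 1 was far above the others for Fam107a (10.58 against 8.95 and 8.70) and Zbtb16 (11.45 against 9.22 and 8.29). The differences there, 0.84 and 1.39, did not pass, and without that library they were 0.25 and 0.49.

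**Figure D4:**
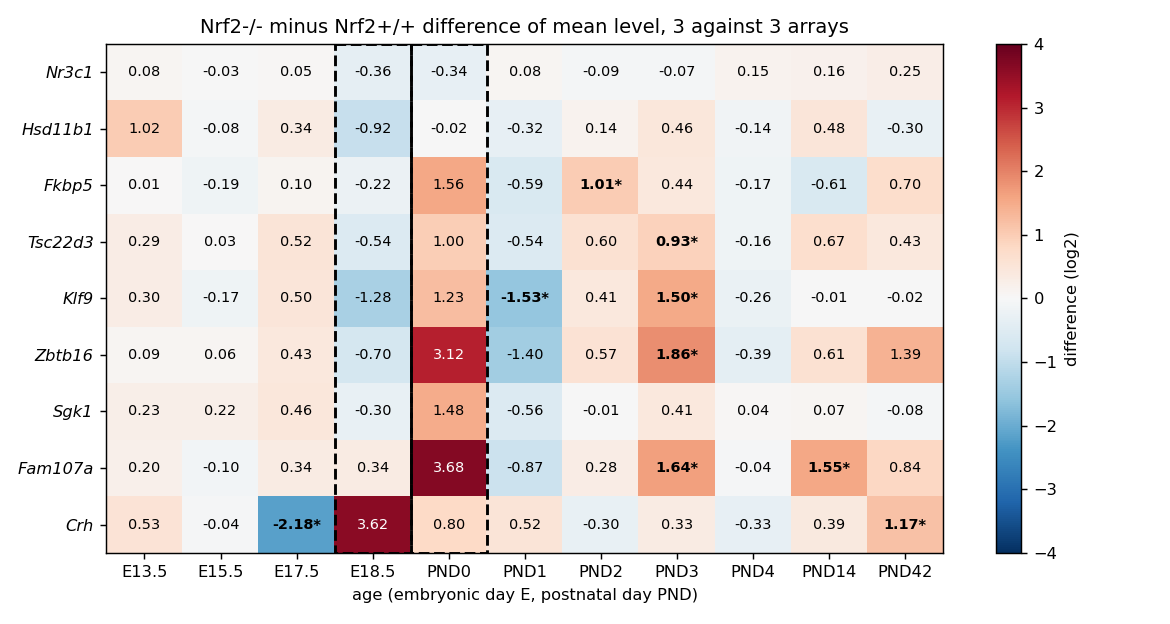
Difference of the mean level, KO minus WT on the log2 scale, of 9 members (rows) at 11 ages (columns), red for higher and blue for lower in KO, with 3 arrays in each group. A star marks limma's adjusted p under 0.05, and the dashed frame holds the ages that chose members, which were not tested. The targets are red at PND0 and PND3 and blue at PND1, and Crh changes from -2.18 to 3.62 between the labels E17.5 and E18.5.

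Averaged over the 9 ages, 2 of 9 members were higher in KO by limma (5.39% of genes rose): Fam107a by 0.43 ± 0.10 (adjusted p = 0.0043) and Tsc22d3 by 0.31 ± 0.08 (adjusted p = 0.0079). Each held in every setting tried. Leaving aside the second brightest probe set, Fam107a lay between 0.34 and 0.47 and Tsc22d3 between 0.25 and 0.35. The genotype difference varied among the 9 ages in 6 of 9 members, against 21.9% of genes: Klf9 (adjusted p = 1.1e-05), Crh (5.3e-05), Fam107a (0.00019), Tsc22d3 (0.014), Zbtb16 (0.023) and Fkbp5 (0.026). Without E17.5, 5 of 9 did (21.4% of genes) and Crh did not (adjusted p = 0.15). Without E13.5, 7 of 9 did (19.4%), with Sgk1 added (adjusted p = 0.046). Nr3c1 and Hsd11b1 passed in none of these.

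Other genes known to be induced by glucocorticoid were measured at the same ages. Of 24 such genes, 16 lay above all WT libraries at PND0 (14.6% of genes) and none below (18.6%). Their median difference was 1.08 against -0.03 over all genes. Per1, a clock gene with a receptor element, read 11.37, 11.77 and 11.83 in KO against 8.99, 9.57 and 9.87 in WT (2.18 ± 0.28). Pdk4, a kinase that spares glucose, differed by 2.22 ± 0.41, and Cdkn1a, a cell cycle inhibitor, by 2.06 ± 0.25.
This list was drawn up with these results known, so its count is a description. At PND3, 8 of the 24 rose by limma (4.08% of genes) and 2 fell (6.73%), with Per1 at 2.10 ± 0.28, Pdk4 at 1.55 ± 0.41 and Rgs2 at -1.02 ± 0.19. Per1 read 10.37, 10.75 and 10.86 in KO against 8.32, 8.50 and 8.88 in WT. Pdk4 read 8.29, 10.28 and 9.27 in KO against 7.85, 7.46 and 7.85 in WT, the order of the muscle signal, which Per1 did not share. At PND1, 9 of 24 fell (0.764% of genes) and none rose. Pdk4 fell by 1.71 ± 0.41, Glul by 1.18 ± 0.17 and Cebpd by 0.93 ± 0.27. At E17.5, 3 rose against 1.33% of genes, led by Lcn2 (2.16 ± 0.41). In WT, 18 rose (16.0% of genes) and 2 fell (18.8%) from E15.5 to E18.5 (median 1.25), led by Lcn2 (5.16 ± 0.41). From PND1 to PND4 in WT, 14 fell (6.1% of genes) and 1 rose (7.31%).
Of 15 clock genes, 8 lay above all WT libraries at PND0 (14.6% of genes) and 1 below (18.6%). Among the largest differences, Cry2 (1.12 ± 0.21) and Tef (1.03 ± 0.17) did not overlap, while Nr1d1 (1.34 ± 0.38) did, with its lowest KO library at 6.13 and its highest WT library at 6.53. At PND3 none of the 15 rose (4.08% of genes) and Nr1d2 fell (-0.99 ± 0.20, with 6.73% of genes). At PND1 3 fell (0.764% of genes). The hour at which lungs were taken was not used here. Of 15 fetal lung genes that respond to the hormone, 12 rose (16.0% of genes) and 2 fell (18.8%) from E15.5 to E18.5 in WT. The rises were led by the surfactant protein gene Sftpd (6.09 ± 0.41) and the water channel gene Aqp5 (5.58 ± 0.39). At PND0, 4 of these 15 lay above all WT libraries (14.6% of genes) and 5 below (18.6%), with a median difference of 0.06. That median joins genes that rose with genes that fell before birth. The 3 largest differences did not overlap. Vcan, which encodes a matrix proteoglycan, was lower in KO (9.015 to 9.81 against 10.31 to 10.75). Scnn1a (10.52 to 10.97 against 9.80 to 9.88) and Sftpb (13.35 to 13.60 against 12.78 to 13.16) were higher. At PND3, 3 rose (4.08% of genes) and 1 fell (6.73%). Vcan fell by 0.765 ± 0.23 at PND3. Those that rose were the sodium channel genes Scnn1a (1.99 ± 0.25), Scnn1g (0.93 ± 0.28) and Scnn1b (0.82 ± 0.27).
Of 12 receptor partners and steroid-handling genes, 2 rose (4.08% of genes) and 1 fell (6.73%) at PND3 by limma. Each changed by less than 0.4 (Ncoa1 0.39, Bag1 0.26 and Hsp90aa1 -0.35). At PND0, Serpina6, the carrier of hormone in blood, differed by 1.31 ± 0.53 and H6pd, the partner enzyme of Hsd11b1, by 0.80 ± 0.155. In WT, Hsd11b2, which inactivates the hormone, fell by 1.64 ± 0.30 from E15.5 to E18.5 while H6pd rose by 1.39 ± 0.155.

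Over the 22 group means, Klf9 and Tsc22d3 correlated most (r = 0.911), and Crh ran against Sgk1 (r = -0.855). Among 10993 genes with a mean level of at least 7, the closest to Crh was Foxp2 (r = 0.947), followed by Mia (0.946) and Dancr (0.927). The closest to Hsd11b1 was Dpep1 (0.977), to Klf9 Il6ra (0.975), to Sgk1 Dusp1 (0.972) and to Nr3c1 Serinc5 (0.951). The closest to Zbtb16 was Map3k6 (0.938), to Tsc22d3 Rbl2 (0.935), to Fkbp5 Med13l (0.878) and to Fam107a 2810013P06Rik (0.873). These are descriptions over group means that share arrays and the array sets.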

How the data were processed

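RNA of 66 mouse lungs or pools, in 22 groups of 3, was measured on 1-colour Affymetrix arrays. The authors deposited 1 linear intensity per probe set and array, and the submitters' processing notes name GCOS without a version. From 45101 probe sets 64 controls were left out. The platform annotation named 34945 of the rest with 1 symbol, 932 with several and 9160 with none. Values were quantile normalized between arrays and taken as log2(value + 16), which understates changes of dim genes. Genotype and age came from the sample labels. The number of arrays limits the precision.

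A single limma 3.58.1 fit (R 4.3.3) with 22 group means, empirical Bayes moderation and an intensity trend covered all arrays (residual df 44, prior df 6.69). P-values are two-sided and adjusted by the Benjamini-Hochberg method over 45037 probe sets, with a threshold of 0.05. An exact permutation test of 3 against 3 cannot reach this threshold. SEs rest on 1 pooled spread. The model was tested on simulated data. KO minus WT at E18.5 and PND0 and KO steps that use those libraries were described without a test. WT steps that use the WT libraries of those ages were tested. The members and lists were chosen with earlier results of these data known. Named were the 9 members, for each list at most 3 genes with the largest difference among those called in a comparison (without a threshold at E18.5 and PND0), and the genes most like each member. Of 15 receptor partners 12 were measured, without Hsp90ab1, Ptges3 and Ncor1.

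Alternatives were other scalings, pseudocounts of 1 and 64, a filter on dim probe sets (signal of 100 on 3 arrays), no trend, array weights, each array set alone, the second brightest probe set, a replicate block, each library left out, and, chosen after seeing the data, E17.5, E13.5 or WT replicate 2 of E13.5 and PND14 left out. Scripts used Python 3.11.15 with pandas 2.3.3, and figures matplotlib 3.10.9.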

Additional observations from a re-analysis of the deposited data

Results flagged for a closer look

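The difference between KO and WT was not the same at the 9 tested ages in 6 members, by limma's F test with adjusted p-values over all probe sets. The adjusted p was 1.1e-05 for Klf9, which was lower in KO at PND1 and higher at PND3. It was 5.3e-05 for Crh, lower in KO at E17.5 and higher at PND42. Without E17.5 the adjusted p of this F test for Crh was 0.15. By limma, its E17.5 call was lost with a pseudocount of 1 (adjusted p = 0.115). Its PND42 call was lost with a pseudocount of 64 (0.33) and without some single libraries. For Fam107a the adjusted p of the F test was 0.00019, with higher levels in KO at PND3 and PND14. It was 0.014 for Tsc22d3, 0.023 for Zbtb16 and 0.026 for Fkbp5, whose 1 call each was a rise, at PND3 for the former pair and at PND2 for Fkbp5. No cause of these differences between ages was tested.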

How the results depend on the processing

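The count of members that changed with WT age (9) and of members higher on average in KO (2) was equal in every setting run over all 9. WT step calls numbered 17 to 25 against 20, genotype calls 6 to 12 against 9, and members whose difference varied with age 4 to 7 against 6, with the lowest values as deposited. With the second brightest probe set, which 6 members have, there were 11 genotype calls against 7 for the same genes, and 2 values turned direction: Nr3c1 at PND42 (-0.45 against 0.25) and Tsc22d3 in WT from PND0 to PND14 (-0.73 against 0.09). Leaving out 1 library gave 1 to 4 KO step calls against 4, the fewest without KO PND1 replicate 1, and 2 without KO PND1 replicate 3, KO PND4 replicate 2 or KO PND4 replicate 3. WT step calls then numbered 18 to 21, genotype calls 7 to 11 and varying members 5 to 7. Of 35 called values, 13 lost the call in a setting other than leaving out a library and 14 without 1 of their own libraries.

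Same-numbered libraries did not deviate together (33 pairs, r from -0.184 to 0.212, 1 above 0.1), so the numbers do not pair samples. With a replicate block there were 20 WT step calls, 4 KO step calls and 9 genotype calls, as without it, and with a replicate block within each age 10 genotype calls. Signal near the bottom of the scale limits Crh after birth.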

Other observations

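Single libraries moved several members at once. KO E15.5 replicate 1 was the highest of its group in 8 of 9 members, and KO PND1 replicate 1 and KO PND2 replicate 2 in 7. KO PND42 replicate 1 was the highest in Fkbp5, Klf9, Tsc22d3, Zbtb16 and Fam107a, with Fkbp5 at 9.73 against 8.94 and 8.32 and Tsc22d3 at 12.89 against 11.92 and 11.91. WT PND14 replicate 2 was the lowest of its group in 7 members and the highest in Fkbp5 and Crh. WT E17.5 replicate 2 was the lowest and replicate 3 the highest in 7 members, and replicate 3 also had the highest fetal scale position of the group (0.640 against 0.527 and 0.540).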
